A study of Mus musculus with 6 samples.

Results

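The transcripts of the mitochondrial genome were described in mouse bone marrow derived macrophages given a RIP1 inhibitor or its solvent. They were taken as every gene of the count table whose symbol starts with "mt-", which gave 37 genes of 52459: 13 mRNAs, 2 ribosomal RNAs (rRNAs) and 22 transfer RNAs (tRNAs). The cells came from marrow of C57BL/6 mice, were cultured in GM-CSF, a growth factor of myeloid cells, and received their treatment on day 7 until the next day. DMSO, the solvent control, was given to 1 group and RIP1i to the other, with 3 libraries each. The labels give neither the compound behind RIP1i nor its dose. All 6 libraries share the strain, the culture and the extraction of total RNA, and the labels do not say whether the 3 libraries of a group came from separate cultures or animals.

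The mitochondrial genome is a small circle of DNA that is copied into long RNAs from both strands. In most places tRNAs sit between the longer genes, and enzymes that cut out the tRNAs at both ends release the mRNAs and rRNAs, most of which then receive a short poly(A) tail. The mRNAs encode core subunits of the respiratory chain complexes I, III and IV and of the ATP synthase (complex V), and the rRNAs and tRNAs serve the ribosomes that translate them. All other proteins of mitochondria, among them those that transcribe and translate this genome, come from nuclear genes.

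Pieces of mitochondrial DNA have also been inserted into nuclear chromosomes, and some inserted pieces are annotated as pseudogenes. Where a copy is identical, a read fits the mitochondrial gene and the copy equally well. As an example, a stretch of mt-Co2, which encodes subunit 2 of complex IV, is shown with both annotated copies. The sequences are from GENCODE transcripts of release M21 on the mouse build GRCm38 (mm10). Positions 202 to 291 are counted from the 5′ end of mt-Co2 (chrM:7013-7696, plus strand). Gm28661 lies at chr1:24614885-24615565 and Gm13341 at chr2:22587291-22587962, both on the minus strand, and capitals mark bases that differ from mt-Co2.
mt-Co2: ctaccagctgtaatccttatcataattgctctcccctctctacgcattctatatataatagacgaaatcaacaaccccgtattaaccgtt
Gm28661: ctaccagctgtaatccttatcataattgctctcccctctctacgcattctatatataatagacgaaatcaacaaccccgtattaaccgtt
Gm13341: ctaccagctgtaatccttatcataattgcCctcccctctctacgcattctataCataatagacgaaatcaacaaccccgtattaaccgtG
The copy on chromosome 1 is letter for letter the same, while that on chromosome 2 has 3 differences here (T231C, T255C and T291G, the mitochondrial base first).

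Library totals ran from 40264902 to 44862310 counts, with 21687 to 22193 genes detected per library. Macrophage markers such as Lyz2, Csf1r, Adgre1 and Itgam were present in every library. The 7 markers listed summed to 43957 to 58421 CPM (counts scaled to a library of fixed size). Most of that sum was Lyz2, with 39866 to 54100 CPM, while Csf1r had 1280 to 1560 CPM and Fcgr1 83.5 to 135 CPM. Summed neutrophil markers (7 genes, 222 to 655 CPM) and stromal markers (6 genes, 74.8 to 336 CPM) varied between libraries with overlapping groups. Erythroid markers (3 genes) and T, B and NK cell markers (5 genes) summed to at most 0.149 and 0.546 CPM. The library sizes behind CPM were adjusted with TMM factors.

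Mitochondrial transcripts took 1.73%, 1.139% and 1.36% of all counts in DMSO replicates 1 to 3 and 1.33%, 1.299% and 1.76% in RIP1i replicates 1 to 3. DMSO replicate 1 and RIP1i replicate 3 were therefore high, and the other 4 libraries lay between 1.139% and 1.36%. The group means were 1.41% ± 0.298 and 1.46% ± 0.261 (SD, n = 3 each), so the difference of 0.0546 percentage points was smaller than the spread within either group. Leaving out DMSO replicate 1 gave a difference of 0.215 points, while leaving out RIP1i replicate 3 or DMSO replicate 2 turned it to -0.0956 or -0.0802 points. In bulk samples of this kind, fewer cells of a type and less RNA per cell cannot be told apart.

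The 2 rRNAs held most of these counts. Their share of the library was 1.11%, 0.726% and 0.862% in DMSO and 0.840%, 0.877% and 1.23% in RIP1i (means 0.901% ± 0.197 and 0.983% ± 0.216). The 13 mRNAs took 0.614%, 0.413% and 0.496% in DMSO and 0.486%, 0.422% and 0.532% in RIP1i (means 0.508% ± 0.101 and 0.480% ± 0.0553). Both classes overlapped between the groups. Beside this spread the counting error was small, with 95% Wilson intervals no wider than 0.00332 percentage points to either side for rRNAs and 0.00231 for mRNAs. The 22 tRNAs together had only 123, 82 and 89 counts in DMSO and 85, 75 and 128 in RIP1i.

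**Figure D1:**
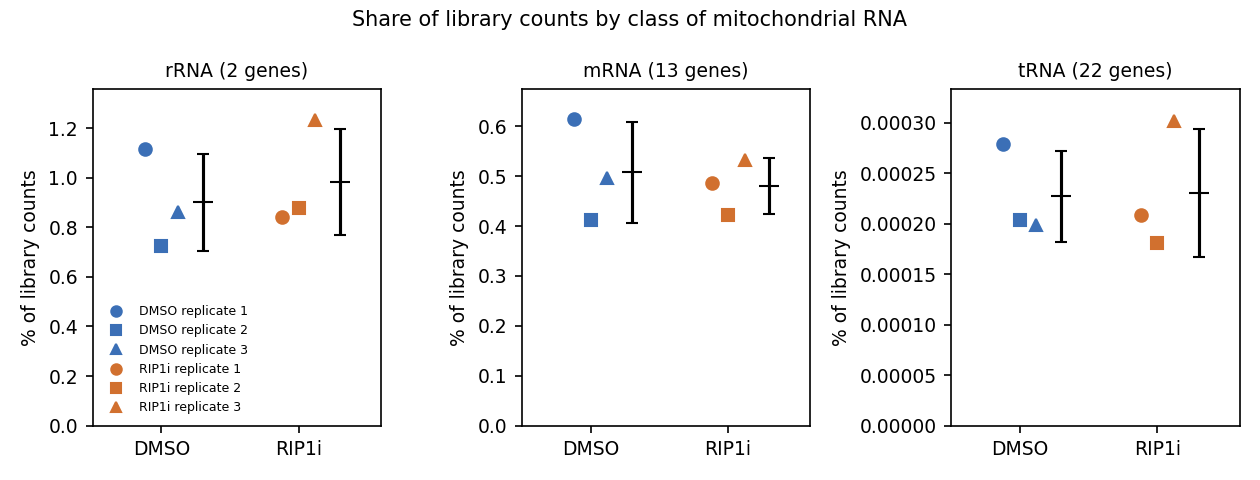
Share of library counts (percent, axes from 0) taken by mitochondrial rRNAs, mRNAs and tRNAs. Symbols are the libraries of each group and the black bars give mean ± SD (n = 3); the groups overlap in every panel, and DMSO replicate 1 and RIP1i replicate 3 are the highest library of their group for all 3 classes.

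Levels per length were compared on the FPKM scale (fragments scaled by gene length and library depth). mt-Rnr2, the large-subunit rRNA (chrM:1094-2675), stood highest at 5130 ± 1107 FPKM in DMSO and 5736 ± 1381 FPKM in RIP1i. mt-Co1 (chrM:5328-6872), which encodes the catalytic subunit of complex IV, followed at 2546 ± 472 and 2397 ± 301 FPKM, and mt-Rnr1, the small-subunit rRNA, stood at 866 ± 154 and 833 ± 81.9 FPKM. In all 6 libraries the order was mt-Rnr2, mt-Co1, mt-Rnr1, and their ranges did not overlap. A further step down lay mt-Nd1, a complex I subunit, at 470 ± 125 and 489 ± 103 FPKM, and mt-Cytb, the cytochrome b of complex III, at 326 ± 69.2 and 300 ± 19.9 FPKM. The ranges of these neighbours overlapped, although mt-Nd1 was the higher of the pair in every library.

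Other complex I subunits were lower. mt-Nd2 had 96.3 ± 19.8 FPKM in DMSO and 109 ± 25.03 FPKM in RIP1i. mt-Nd4 ranged from 53.6 to 71.7 FPKM and mt-Nd5 from 40.3 to 60.6 FPKM over the 6 libraries, with overlapping ranges. mt-Nd6 (chrM:13552-14070), the mRNA encoded on the minus strand of the reference (the other 12 lie on the plus strand), ranged from 5.88 to 15.6 FPKM, below every value of mt-Nd5. The end of mt-Nd5 overlaps that of mt-Nd6 by 14 bases, and the strand setting of the counting is not given in the sources used here, so reads of mt-Nd6 and of RNA from the opposite strand cannot be told apart.

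The 6 remaining mRNAs were almost without counts. These are mt-Co2, mt-Atp8, mt-Atp6, mt-Co3, mt-Nd3 and mt-Nd4l, which follow each other between chrM:7013-10173 and encode subunits of complex IV, the ATP synthase and complex I. mt-Co3 ranged from 1.33 to 2.20 FPKM and mt-Nd3 from 1.00 to 2.47 FPKM. mt-Co2 ranged from 0.49 to 0.87, mt-Atp6 from 0.26 to 0.95 and mt-Atp8 from 0.11 to 0.82 FPKM. mt-Nd4l reached at most 0.17 FPKM and was listed at 0 in DMSO replicate 2 and RIP1i replicate 3. Per length, mt-Co1 and mt-Co2, subunits of the same complex and neighbours on the same strand, thus stood at 2063 to 3033 FPKM and at 0.49 to 0.87 FPKM.

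**Figure D2:**
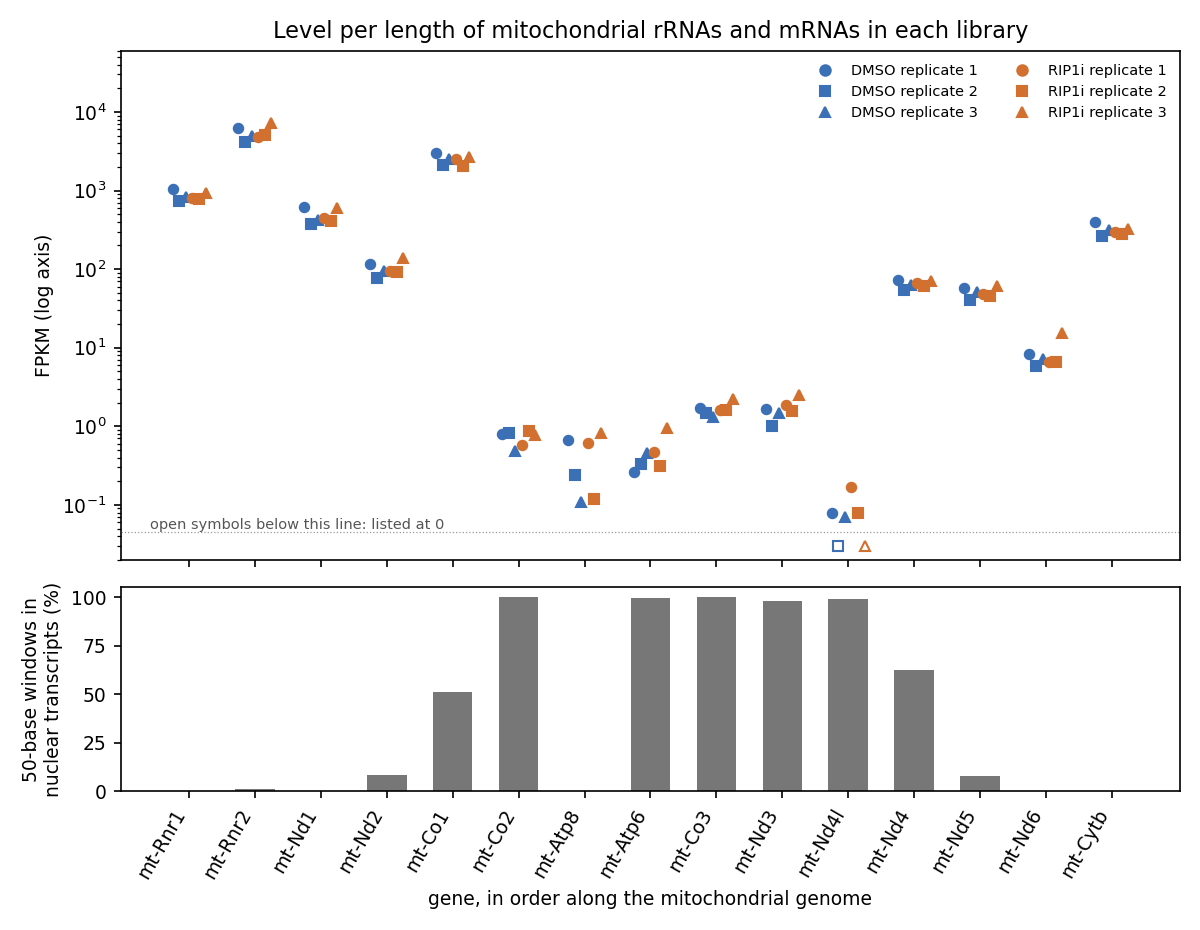
Upper panel: FPKM (log axis) of the 2 rRNAs and 13 mRNAs in each library, in genome order; open symbols stand for a listed 0. Lower panel: percent of each gene's 50-base windows that occur letter for letter in an annotated nuclear transcript; 5 of the 6 genes from mt-Co2 to mt-Nd4l lie at 98.0% or above, and mt-Atp8 lies at 0.

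In counts, the 6 mRNAs from mt-Co2 to mt-Nd4l had 124, 94 and 101 counts together in DMSO and 113, 112 and 164 in RIP1i. The 7 other mRNAs had 270590, 166143 and 222343 counts in DMSO and 197845, 175094 and 225416 in RIP1i. The block of 6 thus held between 0.0454% and 0.0727% of all mitochondrial mRNA counts over the 6 libraries.

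For 5 of these 6 genes, nearly the whole sequence recurs in annotated nuclear transcripts. For mt-Co2, all 50-base windows (100%) occurred letter for letter in a nuclear transcript, and the share was 99.9% for mt-Co3, 99.5% for mt-Atp6, 98.8% for mt-Nd4l and 98.0% for mt-Nd3. It was 62.2% for mt-Nd4, 51.1% for mt-Co1, 8.19% for mt-Nd2, 7.61% for mt-Nd5 and 1.04% for mt-Rnr2. No window of mt-Rnr1, mt-Nd1, mt-Nd6, mt-Cytb or mt-Atp8 was found at this length. Of 25-base windows 14.9% were found for mt-Nd6, 13.04% for mt-Cytb and 11.7% for mt-Atp8, and 0% for mt-Rnr1 and mt-Nd1. Across the 13 mRNAs, mean FPKM and the share of 50-base windows found had a Spearman's rho of -0.47. Several genes went against this direction. mt-Atp8 had 0% of windows and 0.11 to 0.82 FPKM, and mt-Nd6 had 0% and 5.88 to 15.6 FPKM. mt-Co1, the highest mRNA, had 51.1% of windows and 2063 to 3033 FPKM. The rho describes genes of the same 6 libraries, and genes are not independent replicates.

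Most of this shared sequence lies in a single nuclear stretch. At chr1:24611535-24616197, on the minus strand, 7 annotated pseudogenes match mitochondrial genes one after another. Gm28661 matched 681 of 681 bases of mt-Co2, Gm10925 matched 678 of 678 of mt-Atp6 and Gm28437 matched 783 of 783 of mt-Co3. Gm10222 matched 294 of 294 bases of mt-Nd4l, and Gm28439 matched the first 876 bases of mt-Nd4 without a difference. Gm28438 matched 344 of 345 bases of mt-Nd3 (T3C), and Gm29216 matched 482 of 483 bases at the end of mt-Co1 (A1066T). In 4140 aligned bases the 7 pairs differed at 2.

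The chromosome 1 genes kept the order and the spacing of the mitochondrial genes. Of the 6 gaps between neighbouring matches, 5 had the same length in both genomes, and that between mt-Nd3 and mt-Nd4l was 73 bases in the mitochondrial genome and 74 on chromosome 1. The matched stretch covers chrM:6390-11042. mt-Atp8, the exception among the 6 low-count mRNAs in the window search, lies mostly in the gap between mt-Co2 and mt-Atp6. This gap is 233 bases in both genomes and holds no annotated transcript on chromosome 1. The nuclear sequence of that gap was not compared here.

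Other copies were less alike. On chromosome 2, Gm13340 matched 1508 of 1545 bases of mt-Co1, Gm13341 matched 656 of 672 aligned bases of mt-Co2 and Gm13339 matched 493 of 510 bases of mt-Nd2. Gm11410 on chromosome 4 matched 1061 of 1142 bases of mt-Cytb, and Gm11407 matched 977 of 1056 aligned bases of mt-Nd5.

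The chromosome 1 copies themselves had few counts. Together they had 692, 401 and 469 counts in DMSO and 484, 412 and 529 in RIP1i, which is more than the 94 to 164 counts of the 6 mRNAs and far fewer than those of the 7 others. Gm28437 had 249, 147 and 175 counts in DMSO and 157, 165 and 203 in RIP1i, against 59, 46 and 47 and then 51, 53 and 72 for mt-Co3. Gm28661 had 119, 67 and 72 counts in DMSO and 66, 55 and 61 in RIP1i, against 24, 23 and 15 and then 16, 25 and 22 for mt-Co2. For both pairs the nuclear copy had more counts than the mitochondrial gene in every library.

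How reads that match several places were counted is not given in the sources used here. The counts of mt-Co2, mt-Atp8, mt-Atp6, mt-Co3, mt-Nd3 and mt-Nd4l, of parts of mt-Nd4 and mt-Co1, and of the nuclear copies are therefore uncertain as measures of their RNA. The part of shared sequence in these low counts was not tested. All listed copies together held 532 to 882 counts per library, against 458617 to 761873 mitochondrial counts. Adding them to the members could therefore hardly change the mitochondrial share, and the difference between the groups was 0.0545 percentage points. This sum cannot show whether matching reads went uncounted, so the shares given above may be too low.

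**Figure D3:**
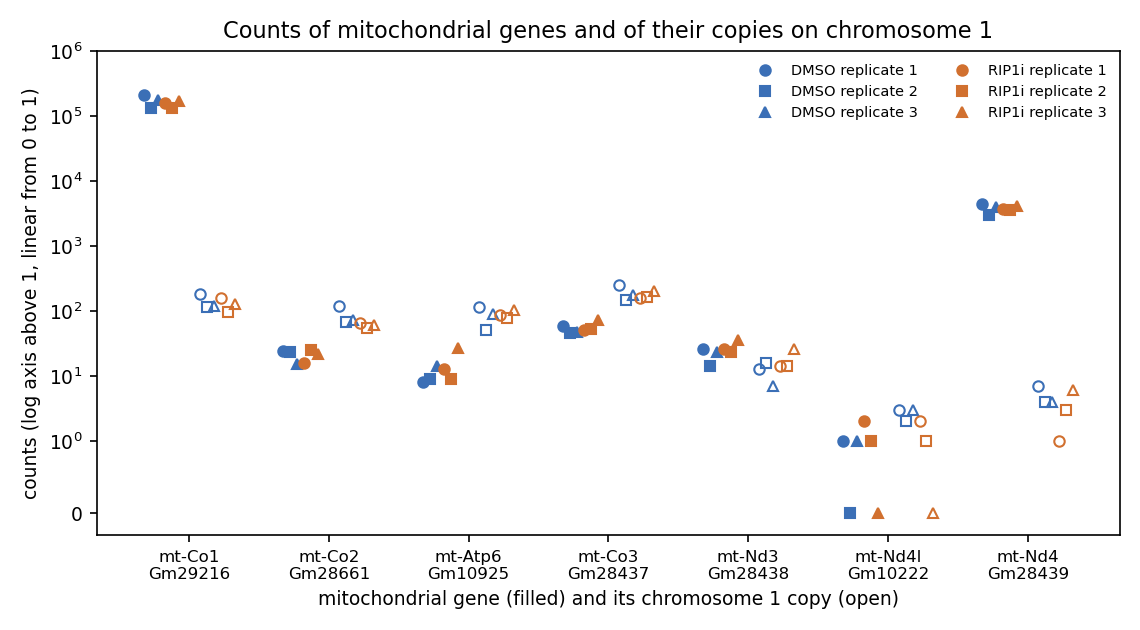
Counts per library (log axis above 1, linear from 0 to 1) of 7 mitochondrial genes (filled) and of the chromosome 1 pseudogene that matches each (open). mt-Co1 and mt-Nd4 lie far above their partial copies, while mt-Co2, mt-Atp6 and mt-Co3 lie below theirs in every library.

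Most tRNA counts fell on a few tRNAs next to well-counted genes. Of 22 tRNAs, 59 to 75 bases long, 18 had at least 1 count, and 4 of them (mt-Tl1, mt-Tm, mt-Tw and mt-Tt) held 445 of the 582 tRNA counts (76.5%). mt-Tl1 lies between mt-Rnr2 and mt-Nd1, mt-Tm ends where mt-Nd2 starts, mt-Tw overlaps the end of mt-Nd2, and mt-Tt follows mt-Cytb. These boundaries are shown for 3 of them because they have no spacer between tRNA and neighbour (tRNA in capitals, up to 25 bases of the neighbour in lower case, plus strand, GENCODE M21 transcripts joined at their annotated ends).
mt-Rnr2, mt-Tl1 and mt-Nd1 (chrM:2651-2775): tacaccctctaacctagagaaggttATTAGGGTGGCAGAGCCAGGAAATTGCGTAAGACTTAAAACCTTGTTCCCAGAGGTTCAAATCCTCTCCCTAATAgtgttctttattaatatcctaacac
mt-Tm and mt-Nd2 (chrM:3845-3938): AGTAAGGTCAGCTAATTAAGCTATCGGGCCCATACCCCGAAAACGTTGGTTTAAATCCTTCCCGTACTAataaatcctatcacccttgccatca
mt-Cytb and mt-Tt (chrM:15264-15355): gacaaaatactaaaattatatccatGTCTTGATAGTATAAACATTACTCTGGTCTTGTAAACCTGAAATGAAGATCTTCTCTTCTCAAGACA
A count for such a tRNA can come from the mature tRNA or from a longer RNA that spans the boundary, and the gene counts do not tell these apart.

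mt-Tl1, the leucine tRNA next to the large rRNA, had 35, 20 and 23 counts in DMSO and 18, 14 and 19 in RIP1i. mt-Tm, which carries methionine, had 28, 18 and 18 counts and then 17, 15 and 12. mt-Tw (tryptophan) had 20, 14 and 21 and then 17, 16 and 31 counts, and mt-Tt (threonine) had 15, 18 and 11 and then 15, 12 and 18. Each of the 14 other tRNAs with counts had at most 13 in any library. Several other tRNAs beside well-counted genes had few counts or none. mt-Tv (valine), which fills the space between the 2 rRNAs, had 1 count in RIP1i replicate 1 and 0 in the other 5 libraries. mt-Th, which follows mt-Nd4, had at most 1 count in a library, and mt-Tl2, which ends where mt-Nd5 starts, at most 2. mt-Tf lies just before mt-Rnr1, and mt-Ts1 overlaps the end of mt-Co1. mt-Tf, mt-Ts1, mt-Td and mt-Tk had 0 counts in all 6 libraries, which allows up to 0.0118 CPM over the 253819840 counts of all libraries. Of these 4, mt-Ts1, mt-Td and mt-Tk lie within the stretch that the chromosome 1 copies parallel. The stretch holds 5 tRNAs, and the other two, mt-Tg and mt-Tr, had at most 4 and 2 counts in a library.

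RIP1i was then compared with DMSO gene by gene, which asks whether the treatment moved any mitochondrial transcript beyond the spread between libraries. Of the 37 members, 17 had enough counts for the test: both rRNAs, 11 mRNAs and 4 tRNAs. mt-Atp8, mt-Nd4l and 18 tRNAs did not. None of the 17 passed an adjusted p under 0.05 in edgeR's quasi-likelihood test (Benjamini-Hochberg, all 14857 genes tested), where the background was 0% of genes and the smallest adjusted p was 0.777. None of the 17 had an unadjusted p under 0.05 either, against 6.21% of all genes (923). The members' adjusted p in edgeR ran from 0.786 to 0.970. DESeq2 called 0 of the 17 as well, and 2 genes in the whole table.

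Of the tested members 12 were fitted higher and 5 lower in RIP1i, with a median log2 fold change of 0.08 against 0.0025 over all genes. Of all genes 51.0% were fitted higher. The 2 rRNAs differed in sign. The DMSO and RIP1i means of mt-Rnr2 were 8127 ± 1768 and 9111 ± 2248 CPM, a log2 fold change of 0.16 (SE 0.20, 95% interval -0.30 to 0.63). mt-Rnr1 stood at 828 ± 148 and 799 ± 83.4 CPM, a log2 fold change of -0.05 (SE 0.13, interval -0.36 to 0.25). Without RIP1i replicate 3, mt-Rnr2 turned to -0.06, and without DMSO replicate 1, mt-Rnr1 turned to 0.08.

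The well-counted mRNAs moved less than the libraries of a group differed from each other. mt-Co1 had 4704, 3240 and 3872 CPM in DMSO and 3847, 3178 and 4128 CPM in RIP1i, with a log2 fold change of -0.08 (SE 0.15, interval -0.43 to 0.26). mt-Cytb had 461, 304 and 355 CPM and then 345, 319 and 369 CPM, with a log2 fold change of -0.12 (SE 0.14). mt-Nd1 had 588, 359 and 405 CPM and then 429, 395 and 585 CPM, with a log2 fold change of 0.06 (SE 0.21). In each case DMSO replicate 1 was the highest library and the groups overlapped.

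The other complex I mRNAs lay on the same scale. mt-Nd2 had 122, 80.6 and 97.9 CPM in DMSO and 99.7, 96.3 and 144 CPM in RIP1i, with a log2 fold change of 0.18 (SE 0.19). mt-Nd4 and mt-Nd5 had log2 fold changes of 0.08 (SE 0.11) and 0.04 (SE 0.15). The interval of mt-Nd4, the narrowest of the 17, ran from -0.16 to 0.33. An interval that includes 0 does not show equal levels. Leaving out 1 library at a time turned the sign of 12 of the 17 fitted differences, none of which had passed the test.

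mt-Nd6 had 4.34, 3.06 and 3.71 CPM in DMSO and 3.47, 3.44 and 8.16 CPM in RIP1i. RIP1i replicate 3 alone stood above the other 5 libraries, which all lay between 3.06 and 4.34 CPM. The log2 fold change was 0.44 (SE 0.34) with that library and -0.10 without it. The 8 tRNAs of the minus strand also had their highest sum there, with 23, 10 and 15 counts in DMSO and 12, 15 and 30 in RIP1i.

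The low-count mRNAs of the block were fitted with wide intervals. mt-Atp6 had 8, 9 and 14 counts in DMSO and 13, 9 and 27 in RIP1i, with a log2 fold change of 0.72 (SE 0.46, interval -0.35 to 1.802). Without the 2 libraries of highest mitochondrial share, its log2 fold change was -0.01. mt-Nd3 (26, 14 and 23 and then 26, 23 and 36 counts) had 0.51 (SE 0.28), mt-Co3 had 0.28 (SE 0.20) and mt-Co2 had 0.08 (SE 0.29) on that scale. These 4 are the genes of the block described above.

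mt-Tl1 was the 1 tested member of 17 whose groups did not overlap, at 0.787, 0.498 and 0.508 CPM in DMSO and 0.446, 0.332 and 0.459 CPM in RIP1i. Of all genes 13.5% had groups that did not overlap, 6.18% with RIP1i lower and 7.36% with RIP1i higher, so 1 of 17 (5.88%) was not above the background. Its log2 fold change was -0.54 (SE 0.28, unadjusted p = 0.0913, adjusted p = 0.786, edgeR), and -0.30 without DMSO replicate 1. mt-Tm had -0.47 (SE 0.28), mt-Tw 0.29 (SE 0.32) and mt-Tt 0.09 (SE 0.31) on the log2 scale.

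**Figure D4:**
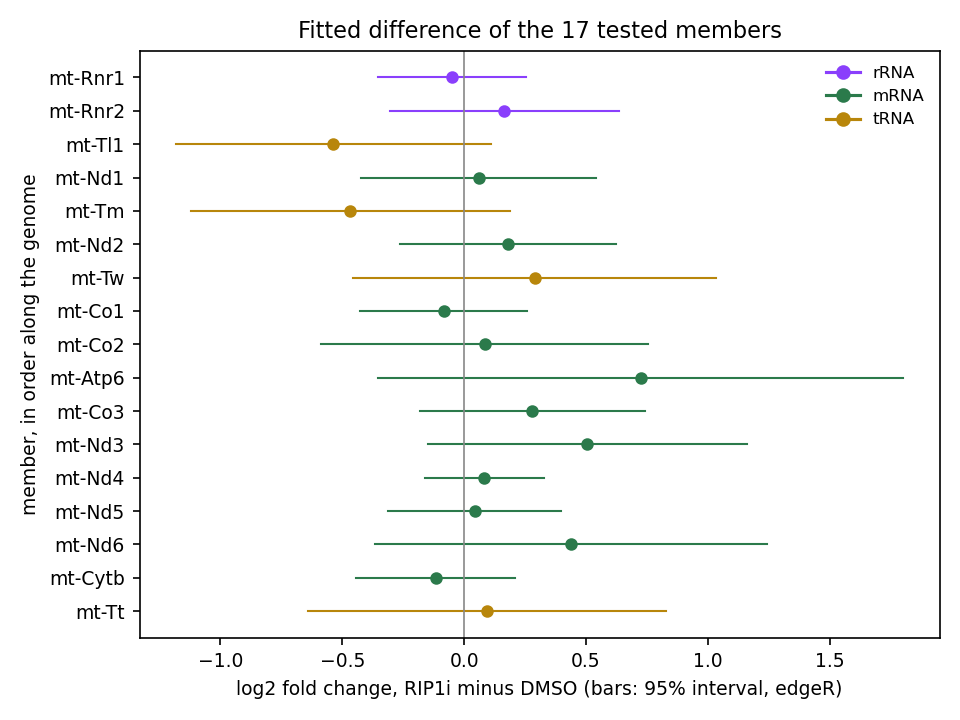
Log2 fold change (RIP1i minus DMSO) of the 17 tested members with the 95% interval from edgeR, coloured by class and in genome order. Every interval includes 0, and among the 17 the interval is narrowest for mt-Nd4 (-0.16 to 0.33) and widest for mt-Atp6.

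Mitochondrial transcripts differed more between libraries than most genes did. Over the 8535 genes whose mean reached 10 CPM, the median coefficient of variation across the 6 libraries was 5.04%. It was 21.9% for mt-Rnr2, 21.8% for mt-Nd1 and 21.2% for mt-Nd2, which was larger than for 98.5% to 98.6% of those genes. It was 15.5% for mt-Nd5, 15.4% for mt-Cytb, 14.9% for mt-Co1, 13.4% for mt-Rnr1 and 10.7% for mt-Nd4. The variation lay within the groups: the coefficient pooled within groups was 23.5% for mt-Rnr2 and 16.3% for mt-Co1.

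The members rose and fell together across libraries only in part. Of the 9 members with over 100 counts in every library, 5 were highest in DMSO replicate 1 and 4 in RIP1i replicate 3, and 8 were lowest in DMSO replicate 2. Relative to its own mean over the 6 libraries, mt-Co1 stood at 1.23 in DMSO replicate 1 and 1.078 in RIP1i replicate 3. mt-Rnr2 stood at 1.17 and 1.36, mt-Nd2 at 1.141 and 1.35, and mt-Nd6 at 0.994 and 1.87 in the same libraries. RIP1i replicate 3 thus had more of mt-Rnr2, mt-Nd2, mt-Nd5 and mt-Nd6 than DMSO replicate 1, and less of mt-Co1, mt-Cytb, mt-Rnr1, mt-Nd1 and mt-Nd4.

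**Figure D5:**
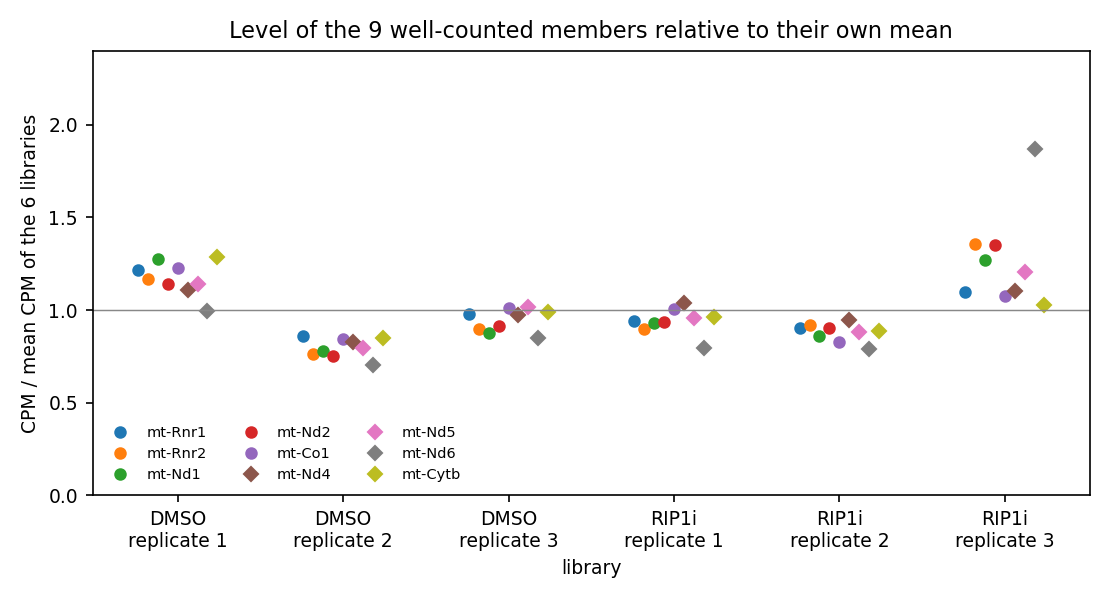
CPM of each of the 9 members with over 100 counts in every library, divided by its mean over the 6 libraries (linear axis from 0, line at 1). DMSO replicate 2 holds the lowest value for 8 of them, and the points of RIP1i replicate 3 spread from 1.03 for mt-Cytb to 1.87 for mt-Nd6.

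The make-up of the mitochondrial counts therefore differed between libraries. rRNAs made up 64.5%, 63.7% and 63.5% of mitochondrial counts in DMSO and 63.3%, 67.5% and 69.8% in RIP1i. There were 1.81, 1.76 and 1.74 rRNA counts per mRNA count in DMSO and 1.73, 2.08 and 2.31 in RIP1i. RIP1i replicates 2 and 3 stood above all DMSO libraries and RIP1i replicate 1 below them, so the groups overlapped. The share of mt-Rnr1 in mitochondrial counts was 5.77%, 6.11% and 5.92% in DMSO and 5.72%, 5.75% and 4.95% in RIP1i. Its groups did not overlap, by a small margin, with 5.774% in DMSO replicate 1 and 5.747% in RIP1i replicate 2. This share was not planned beforehand, and the CPM of mt-Rnr1 overlapped between the groups. mt-Rnr2 outnumbered mt-Rnr1 by 10.2, 9.43 and 9.73 counts to 1 in DMSO and by 10.1, 10.7 and 13.1 in RIP1i.

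Among the mRNAs, complex IV subunits held 77.3%, 78.4% and 78.8% of counts in DMSO and 78.4%, 76.4% and 75.8% in RIP1i, nearly all of them from mt-Co1. Complex I subunits held 15.1%, 14.3% and 14.0% and then 14.6%, 15.9% and 17.4%. mt-Cytb, the only complex III subunit of this genome, held 7.57%, 7.35% and 7.21% and then 7.02%, 7.67% and 6.77%. All 3 shares overlapped between the groups, as did that of complex V, which ranged from 0.00517% to 0.0151%. The 6 mRNAs from mt-Co2 to mt-Nd4l held only 0.0454% to 0.0727% of these counts. Their counts, and parts of those of mt-Co1 and mt-Nd4, are uncertain as measures of their RNA, as described above. The shares by complex carry the same uncertainty. mt-Nd2 counts were 2.59%, 2.49% and 2.53% of mt-Co1 counts in DMSO and 2.59%, 3.03% and 3.50% in RIP1i, a ratio picked after its values were seen. Its groups did not overlap, by a small margin, with 2.590% in DMSO replicate 1 and 2.593% in RIP1i replicate 1.

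The nuclear partners of these transcripts were taken from lists of genes fixed by function. The 71 nuclear subunits of complexes I, III, IV and V were all tested, and 0 were called by edgeR in either direction. Of them 58 were fitted higher and 13 lower in RIP1i, while 51.0% of all genes were fitted higher. Their median log2 fold change was 0.025, against 0.0025 over all genes, and whether they moved as a set was not tested. An unadjusted p under 0.05 in edgeR was reached by 3 of them, a share below the 6.21% of all genes. These 3 belong to complex I: Ndufc2 (0.19, SE 0.064), Ndufb6 (0.15, SE 0.049) and Ndufa1 (0.10, SE 0.039 on the log2 scale). Their adjusted p in edgeR was 0.777 each.

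The summed level of the 71 nuclear subunits was 6808, 7080 and 7019 CPM in DMSO and 7128, 7183 and 7051 CPM in RIP1i, a spread of 1.05 times from lowest to highest library. The mitochondrial share spread 1.55 times. The pooled sum overlapped between the groups, as did those of complexes I, III and IV. That of complex V did not (2780, 2892 and 2866 CPM in DMSO, 2916, 2915 and 2904 CPM in RIP1i). Nor did the sums of transcription and nucleoid genes, of RNA processing and decay genes, or of stress and quality control genes, all listed below. Of all single genes 13.5% had groups that did not overlap, and these sums were not tested. DMSO replicate 1, high in mitochondrial transcripts, was the lowest library for the nuclear subunits.

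Genes that transcribe, process and translate mitochondrial RNA were also measured. Of 171 such nuclear genes 169 were tested, 95 were fitted higher and 74 lower, 0 were called by edgeR, and the median log2 fold change was 0.01. The mitochondrial ribosome's proteins gave 48 higher and 29 lower of 77, with the smallest p for Mrpl44 (log2 fold change 0.12, SE 0.049). Of the transcription and nucleoid genes 4 were fitted higher and 10 lower. Ssbp1, which binds single-stranded mitochondrial DNA, had 24.6 ± 0.50 CPM with DMSO and 22.4 ± 0.58 CPM with RIP1i (log2 fold change -0.14, SE 0.046).

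Enzymes that act on the tRNAs showed no call either. Of 22 mitochondrial aminoacyl-tRNA synthetases, which load tRNAs with amino acids, 13 were fitted higher and 9 lower. The 2 with the smallest p went opposite ways: Rars2, which loads arginine, had a log2 fold change of 0.18 (SE 0.068) and Pars2, which loads proline, one of -0.19 (SE 0.080). Lars2, which loads leucine on mt-Tl1 and mt-Tl2, had 5.71 ± 0.666 and 7.09 ± 1.62 CPM (log2 fold change 0.31, SE 0.17). RNA processing and decay genes gave 12 higher and 9 lower, with the smallest p for Ptcd2 (log2 fold change 0.09, SE 0.041). RNA modification genes gave 10 higher and 11 lower, with Alkbh1, a tRNA demethylase, at -0.19 (SE 0.071).

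Among 8 tested regulators of mitochondrial biogenesis, 4 were fitted higher and 4 lower. Pprc1, a coactivator of the PGC-1 family, had 28.2 ± 1.78 CPM with DMSO and 24.6 ± 0.382 CPM with RIP1i (log2 fold change -0.19, SE 0.057, adjusted p = 0.777, edgeR). Of 13 genes of mitochondrial stress and quality control 9 were fitted higher and 4 lower, and 0 were called by edgeR. Of all genes 6.21% had an unadjusted p under 0.05 in edgeR, and of these 13 genes 3 did. These were Hspe1, the co-chaperonin of the matrix, at 0.20 (SE 0.066), Yme1l1, a protease of the inner membrane, at 0.14 (SE 0.059) and Park2, a ubiquitin ligase that marks damaged mitochondria, at -0.54 (SE 0.21) on the log2 scale.

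RNAs that stay in the nucleus or lack a poly(A) tail are given as a measure of the libraries themselves. The 7 in the table summed to 16228, 18123 and 16896 CPM in DMSO and 15715, 13502 and 15453 CPM in RIP1i, and these sums did not overlap. All 7 were fitted lower (median log2 fold change -0.21, 0 called by edgeR). Neat1 stood at 701 ± 137 and 527 ± 9.84 CPM, and its groups did not overlap either, as for 13.5% of all genes. Malat1, a nuclear RNA, stood at 3657, 3003 and 2331 CPM in DMSO and 2185, 1613 and 2798 CPM in RIP1i, and was highest in DMSO replicate 1, a library of high mitochondrial share. Other RNAs of the list did the opposite there: Rn7sk (6468 CPM), Rmrp (1755 CPM) and Rpph1 (3484 CPM) were lowest of the DMSO libraries in DMSO replicate 1, as was the sum of the list. The part of what sets these RNAs, and of the stromal and neutrophil markers, in the spread of mitochondrial transcripts was not tested.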

How the data were processed

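RNA of 6 libraries was sequenced after TruSeq preparation from total RNA, per the labels' protocols. The values deposited by the authors are raw counts of reads by gene, and FPKM values that hold the same reads scaled by gene length and library. The submitters' processing notes name, per the labels, the build mm10 and the tools STAR 2.5.3a, CASAVA 1.8.4, Subread 1.4.6-p3, DESeq2 1.14.0 and featureCounts. What each tool did, the annotation, strand and multiple-match settings were not given in the sources used here.

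Groups came from the treatment label. Genes were filtered with filterByExpr of edgeR 4.0.16 (minimum count 10, minimum total 15; R 4.3.3), which left 14857, and fitted with TMM scaling and the quasi-likelihood F test, 2-sided, treatment as the only term, with Benjamini-Hochberg adjusted p under 0.05 as the threshold. The procedure was tested on simulated data. Since separate cultures are not stated, p-values cover only the spread of these libraries, which may be technical. Shares are counts over the library total, as mean ± SD. Intervals and limits for 0 counts (3 counts) cover counting error only.

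Coordinates, gene names and transcript sequences are from GENCODE M21 (GRCm38, the same assembly as mm10), matched by symbol. Windows of 50 bases were searched in both strands of all nuclear transcripts, and each copy was aligned locally to its gene with biopython 1.88. Copies without an annotated transcript were not compared.

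All 13 mRNAs and 2 rRNAs were named whatever their result, and tRNAs by counts. From each list up to 4 tested genes with the smallest p could be named, of which the text gives some. Adgre1, Rpph1 and the nuclear copies were named outside this rule. The members and lists were chosen with earlier results of these data known. Alternatives were other scalings and filters, DESeq2 1.42.0, a replicate block, FPKM in place of counts and leaving out libraries.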

Additional observations from a re-analysis of the deposited data

How the results depend on the processing

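No mitochondrial member was called under any alternative, with a smallest adjusted p of 0.692. Over all genes, edgeR called 0 throughout, while DESeq2 called 2, Arhgap4 (log2 fold change -0.27) and Gm10801 (2.16), both at adjusted p 0.0449. No pairing by replicate number was evident (correlations of same-numbered deviations from the group mean 0.0058, -0.53 and -0.48). These correlations cannot show how the libraries were prepared. Correlations under unlike numbers ran from -0.31 to 0.60, highest for DMSO replicate 3 with RIP1i replicate 2. DMSO replicate 2 with RIP1i replicate 3 gave 0.40. Whether the samples pair under other numbers was not tested, and the main fit treated them as unpaired. With the replicate number as a block, edgeR called 0 genes (413 at an unadjusted p under 0.05, smallest adjusted p 0.998). Directions of members held under the other scalings, filters, DESeq2 and the block. Without the 2 libraries of highest mitochondrial share (DMSO replicate 1 and RIP1i replicate 3, an alternative chosen after seeing the data, as were the other window lengths and the added copies), log2 fold changes turned to -0.011 for mt-Atp6, 0.0029 for mt-Cytb, 0.0014 for mt-Rnr1, -0.069 for mt-Tt and -0.033 for mt-Tw. Leaving out 1 library at a time turned the direction of 12 of the 17, with log2 fold changes of -0.21 to 0.052 for mt-Co1, -0.13 to 0.22 for mt-Co2, -0.25 to 0.051 for mt-Cytb, -0.13 to 0.29 for mt-Nd1, -0.034 to 0.33 for mt-Nd2, -0.025 to 0.18 for mt-Nd4, -0.10 to 0.15 for mt-Nd5, -0.10 to 0.64 for mt-Nd6, -0.17 to 0.085 for mt-Rnr1, -0.060 to 0.33 for mt-Rnr2, -0.11 to 0.32 for mt-Tt and -0.079 to 0.46 for mt-Tw. The 5 that kept their sign ran from -0.65 to -0.30 for mt-Tl1, -0.61 to -0.26 for mt-Tm, 0.10 to 0.37 for mt-Co3, 0.30 to 0.66 for mt-Nd3 and 0.16 to 1.01 for mt-Atp6. The difference in mitochondrial share ran from -0.0956 to 0.215 percentage points. With FPKM in place of counts, which weights genes by length, the difference between groups became 0.000306 percentage points for the tRNA share, 0.536 per 1000 for the tRNA to mRNA ratio, 0.0728 percentage points for mt-Nd6 and 0.0114 for complex V among mRNAs. With windows of 25 and 100 bases, the share found in nuclear transcripts was 69.7% and 30.8% for mt-Co1, 21.3% and 0% for mt-Nd5, 18.2% and 3.19% for mt-Nd2, 14.9% and 0% for mt-Nd6, 13.04% and 0% for mt-Cytb, 11.7% and 0% for mt-Atp8, and 3.92% and 0% for mt-Rnr2. Except where an alternative rests on fewer libraries or another unit, the cause was not tested. mt-Atp8, mt-Nd4l and 18 tRNAs had too few counts for the test, and what set their low counts was not tested.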
